A study of Ostrinia nubilalis with 6 samples.

Results

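The 300 probes described here gave the brightest array signals in the larval gut of the European corn borer, Ostrinia nubilalis, among probes whose signal differed little between a control diet and a diet with Cry1Ab protoxin. They were chosen by measured values, from 12972 gut probes of 60 bases, so they make up 2.31% of the gut probes. The deposited normalized values, log2 signals set against the 75th percentile of each array, decided the choice. Probes joined in groups of more than 10 by shared stretches of 20 bases were left out, as were probes whose forward translations hold the serine protease motifs GDSGG or TAAHC. Only 1 gut probe held either motif, so this step does not show that no member comes from a serine protease. Among probes whose protoxin and control means differed by less than 1 on the log2 scale, the 300 with the highest mean over the 6 arrays were taken. High signal and a small diet difference are therefore what the choice used, and both are given below as description, without a test.

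RNA came from whole guts of Bt-susceptible larvae of the Lee strain in the third instar. All larvae were starved for 24 h and then allowed to feed for 6 h. Larvae on the protoxin diet were reported to have stopped feeding by then. The control larvae received artificial diet. The treated larvae received artificial diet with Cry1Ab protoxin at 0.25 µg/mL, first dissolved in a sodium carbonate buffer. This protein, from Bacillus thuringiensis (Bt), is the uncut form of a crystal toxin that acts on the gut. Each diet had 3 replicates with RNA prepared separately, each the RNA of 5 pooled guts on 1 single-color Agilent array, so a value is that of a pool and not of a larva. In whole-gut RNA, fewer cells of a type and less RNA per cell cannot be told apart. The files name the probes only by number, without a gene, a product or a mapped position, so no gut marker could be checked and no member is given a gene name. The label "abundant transcripts" was replaced here by "brightest steady probes", because signal depends on the probe as well as on its transcript.

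The gut of a lepidopteran larva secretes digestive enzymes, lines the food with a peritrophic matrix and absorbs nutrients. Cry1A protoxins are cut to active toxins by gut proteases and bind cadherin, aminopeptidase N and alkaline phosphatase on the midgut brush border. Transcripts of animal genes end in a poly(A) tail, which is added a short distance after a polyadenylation signal, most often AATAAA in the DNA letters of the transcript strand. A probe that holds this signal therefore often lies close to the 3′ end of a transcript, in the part that is not translated. By contrast, a probe within a coding sequence of the standard genetic code keeps 1 reading frame free of stop codons.

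Of the 300 members, 94 held AATAAA on the probe strand, which is 31.3% of them, compared with 7.65% of the 12672 other gut probes and 8.19% of all gut probes. The reverse complement, TTTATT, was in 5.67% of the members and 5.30% of the other probes, so the higher share was seen on 1 strand. A second form of the signal, ATTAAA, was in 6.67% of the members and 4.59% of the other probes, and its reverse complement TTTAAT in 3.33% and 3.28%. Both forms were in the same probe in 8 members. Runs of AAAAAA, which overlapped AATAAA in 8 members, were in 7.67% of the members and 3.67% of the others, and TTTTTT in 1.67% and 2.86%. The windows below show AATAAA in capitals with the bases around it, for 1 probe of each of 6 groups in which every one of 5 members held it. There were 12 groups with the signal in every one of 5 or more members, and these 6 were chosen after their values were seen.
ECB_Gut 5079: ttctcgtaactcAATAAAtaaattg
ECB_Gut 3134: acactgtgatggAATAAAtaatgaaggaat
ECB_Gut 75: ccccgattttgaAATAAActgcaaattgac
ECB_Gut 1048: ccggtgaaatgaAATAAAaagaaaattatg
ECB_Gut 1182: gttaggtatccgAATAAAtaatatcttgtg
ECB_Gut 1274: ataagtctaaaaAATAAAagaaa

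The signal sat late in the member probes. It began at base 43.5 in the median, counted from 1 at the 5′ end of the probe, and after base 30 in 84 of the 94 members with it, or 89.4%. In the other probes with the signal, the median start was base 39 and 68.2% began after base 30. No member had it in its first 20 bases, whereas 9.49% of the signals in other probes began in bases 1 to 10 and 10.8% in bases 11 to 20. The 94 members with it came from 29 groups, whose overlapping probes often hold the same site. These shares therefore count some sites more than once. Frames were read with the standard genetic code, so coding sequence under another code could lack an open frame. A frame without a stop codon was present in at least 1 of the 3 forward frames of 180 members and absent in 120. That share of 60.0% compared with 78.1% of all other probes and with 64.7% of those in the brightest of 10 classes of mean level, so the members were close to other bright probes in this respect. A match is only a run of letters in a probe, and its use as a signal was not measured.

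The level of a probe and the presence of AATAAA went together only at the bright end. When all gut probes were divided into 10 equal classes by their mean level, 22.1% of the probes that were not chosen held AATAAA in the brightest class, and 4.55% to 8.86% in the other 9 classes. The 169 probes that were bright enough but were left out for lying in large groups held it in 22.5%. ATTAAA was in 8.02% of the brightest class of probes not chosen and in 24.3% of these 169, both above the 6.67% of the members. Either form was in 35.3% of the members, 27.5% of that brightest class and 38.5% of the 169. Members with and without AATAAA were close in the other measures. Their median levels were 4.94 and 5.07, their median diet differences 0.12 and 0.10, and their median SDs between pools of a diet 0.18 and 0.21, all on the log2 scale. Median GC content was close, at 38.3% in the members and 40.0% in the other probes. The members ranged from 35.0% to 55.0%, and the other probes more widely, from 15% to 80%.

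**Figure D1:**
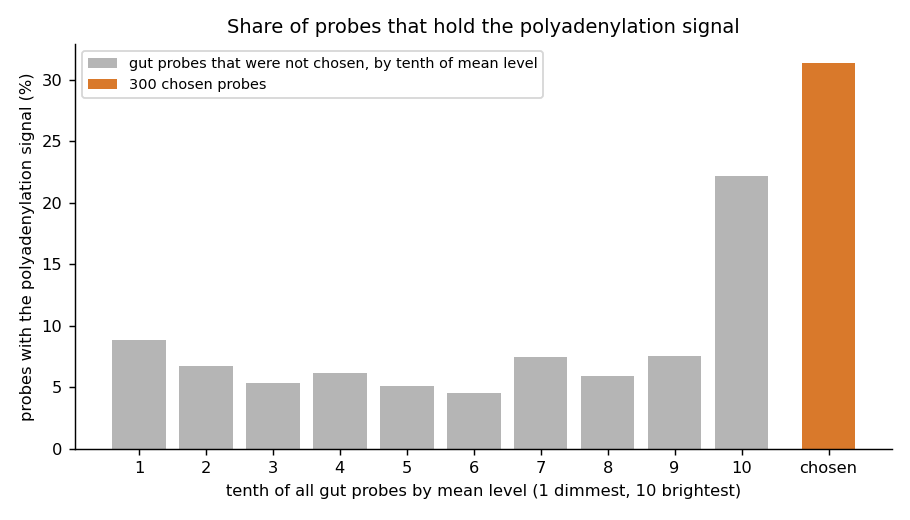
Share of probes, in percent, that held the polyadenylation signal, for the gut probes that were not chosen in 10 classes of mean level (grey bars, dimmest class 1 and brightest class 10) and for the 300 chosen probes (orange bar). The share was 31.3% in the chosen probes, 22.1% in the brightest class of the others and at most 8.86% in the classes below it.

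Many members were different spots of the same transcript stretch, so 300 probes do not stand for 300 transcripts. Linked by at least 20 shared bases, the members fell into 100 groups, each called here by its highest ranked member. A single member probe represented 36 groups, 2 members 22 groups and 5 members another 22, and the largest groups had 10 members each. All probes of the array that belonged to the group were members in 62 groups, of which 23 had a single probe. In the other 38 groups, 99 further probes fell outside the choice. The polyadenylation signal was in a probe of 32 of the 100 groups, members or not, compared with 7.66% of all 5169 groups on the array, although a group with more probes has more chances to hold it. Probes of a group mostly came from sliding along the transcript by a few bases. The next sequences are the brightest members of 3 of the highest ranked groups, which had an open frame and no polyadenylation signal, with capitals for the bases that every probe of the group shares. These probes are shown in full because its letters are the only identity that the files give.
ECB_Gut 6884: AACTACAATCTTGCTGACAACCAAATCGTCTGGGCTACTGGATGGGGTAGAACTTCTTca
ECB_Gut 9847: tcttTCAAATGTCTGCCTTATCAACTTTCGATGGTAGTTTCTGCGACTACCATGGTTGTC
ECB_Gut 460: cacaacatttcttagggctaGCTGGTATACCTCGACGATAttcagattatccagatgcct

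The mean level of the members ran from 4.38 to 6.64 with a median of 5.04, as the log2 of the signal over the 75th percentile of its array. These values correspond to 20.9-fold, 99.6-fold and 32.8-fold of that percentile. All 300 were well above background on all 6 arrays, and none of their spots was saturated. Their processed signals lay between 3514 and 50515, in the units of the scanner. For 13 members, 19 spots marked as outliers by the scanner software were left out, and counts and spreads below are over the 287 members with all 6 values.

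The 20 highest ranked members came from 8 groups. In the ECB_Gut 6884 group, the brightest, the mean of the 4 members was 6.38, 6.86 and 6.37 on the control arrays and 6.54, 6.47 and 6.79 on the protoxin arrays, here and below in the order of replicates 1, 2 and 3. The diet means, 6.54 ± 0.28 and 6.60 ± 0.17 (SD, n = 3), differed by 0.06, less than either SD. After quantile normalization, which gives each array the same distribution, the difference was −0.15 and the diets no longer overlapped. The 4 probes of this group held between 0.92% and 1.22% of the summed gut signal of an array.

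In the ECB_Gut 9847 group, the 5 members read 6.16, 6.61 and 6.14 on the control arrays and 6.46, 5.41 and 6.84 on the protoxin arrays. Protoxin replicate 2 was the lowest of the 6 arrays and protoxin replicate 3 the highest. The control and protoxin means were 6.30 ± 0.27 and 6.24 ± 0.74, and no group with at least 2 members had a larger spread within a diet. Without protoxin replicate 2 the difference between the diets was 0.35 in place of −0.07.

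Control replicate 2 was the highest control array in 7 of these 8 groups. The diets overlapped in 7 of the 8, and in 1 the protoxin arrays were higher without overlap. After quantile normalization 6 overlapped and 2 were lower. All 8 overlapped after normexp background correction and with a median shift. Over all single probes, the share without overlap was 25.6% under this scaling and 26.3% after quantile normalization. It was 24.7% after normexp background correction and 25.8% with a median shift. The single probe ECB_Gut 3539 gave 6.10, 6.75 and 6.16 on the control arrays and 6.48, 6.60 and 7.02 on the protoxin arrays. The 5 members of the ECB_Gut 2224 group gave 5.83, 6.16 and 5.47, and then 5.98, 5.95 and 6.66. The diets overlapped in both, with differences of 0.36 and 0.38. The single probe ECB_Gut 978 was 0.21 lower on protoxin diet, with 5.99, 6.49 and 6.16 against 5.99, 5.77 and 6.27, and after quantile normalization its difference was −0.49, without overlap. The ECB_Gut 1259 and ECB_Gut 460 groups were 0.18 and 0.26 higher, and their diets also overlapped.

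**Figure D2:**
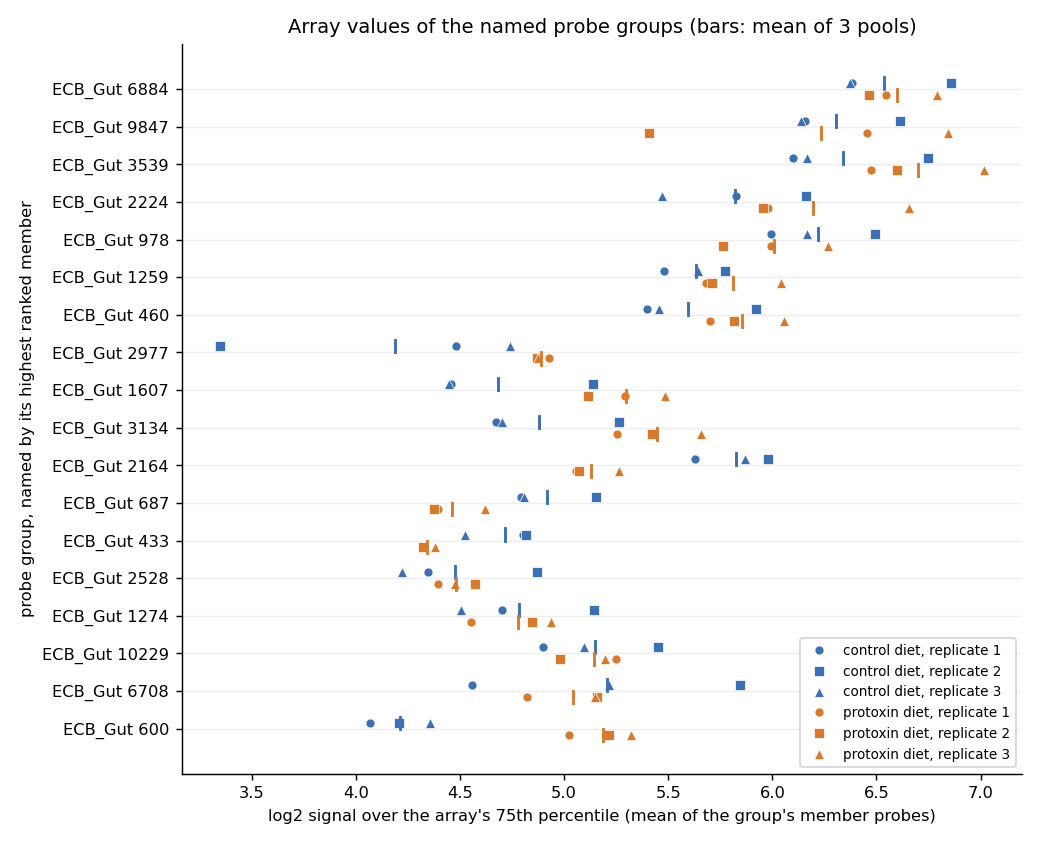
Log2 signal over the 75th percentile of the array (horizontal axis) on the 3 control arrays (blue) and the 3 protoxin arrays (orange) for 18 named probe groups (vertical axis); symbols mark the replicates and vertical bars the diet means. The diets overlap in the first 7 groups from the top, with 1 of the 8 brightest groups, which did not overlap, not drawn, and the ECB_Gut 600 probe and the ECB_Gut 2164 group show the widest gaps between non-overlapping diets.

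Overlapping probes of 1 group mostly gave similar levels. In the 77 groups with 2 or more probes on the array, the means of the probes spanned 0.37 in the median, and 68 of these groups spanned 1 or less. In 3 groups the span exceeded 5, so that a member and another probe of its group, linked by shared bases directly or through other probes, gave far different signals. The ECB_Gut 3535 group was the extreme. Its 3 probes overlap along 1 stretch, with 31 bases shared by ECB_Gut 3537 and ECB_Gut 3536 and 23 by ECB_Gut 3536 and ECB_Gut 3535. Capitals mark the shared bases, for ECB_Gut 3536 those shared with ECB_Gut 3535.
ECB_Gut 3537: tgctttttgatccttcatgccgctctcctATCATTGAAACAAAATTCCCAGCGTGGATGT
ECB_Gut 3536: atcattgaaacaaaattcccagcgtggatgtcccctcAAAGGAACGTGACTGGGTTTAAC
ECB_Gut 3535: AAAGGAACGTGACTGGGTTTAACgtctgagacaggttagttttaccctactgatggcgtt

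The member ECB_Gut 3535 gave 5.50, 5.86 and 5.47 on the control arrays and 5.62, 5.58 and 6.18 on the protoxin arrays. ECB_Gut 3536 was not well above background on any array and was at the floor of the values on 3 arrays. ECB_Gut 3537 was well above background on all 6 arrays, at 3.08, 2.79 and 2.07 on the control arrays and 2.02, 0.12 and 2.87 on the protoxin arrays. The 3 probes thus gave a strong, an undetected and an intermediate signal along neighbouring bases, and why was not tested.

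In the ECB_Gut 462 group, 2 of 10 probes were members. ECB_Gut 462 and ECB_Gut 5947 share 30 bases in a row and differ in the bases before them, and ECB_Gut 775 shares 33 with ECB_Gut 5947. Capitals mark the stretch shared with ECB_Gut 5947 or, for ECB_Gut 5947, with ECB_Gut 462. ECB_Gut 5947 and ECB_Gut 775 are shown as the dimmest and the brightest probe of the group that are not members.
ECB_Gut 462: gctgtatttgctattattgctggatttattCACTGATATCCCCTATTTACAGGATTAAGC
ECB_Gut 5947: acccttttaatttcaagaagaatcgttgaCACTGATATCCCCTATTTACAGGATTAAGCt
ECB_Gut 775: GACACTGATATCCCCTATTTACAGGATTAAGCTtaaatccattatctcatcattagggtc

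ECB_Gut 462 averaged 5.45 ± 0.21 over the 6 arrays, ECB_Gut 775 averaged 3.83 ± 0.29 and ECB_Gut 5947 averaged −0.33 ± 0.18 (SD, n = 6). The other member of the group, ECB_Gut 463, averaged 5.34 ± 0.16 and shares 24 bases with ECB_Gut 462, in the part that ECB_Gut 5947 lacks. Each probe kept its own level on all 6 arrays, so the shared 30 bases went with both high and low signals. The group of ECB_Gut 2363 also spanned over 5, with 1 member of 4 probes at a mean of 5.00 and its lowest probe, ECB_Gut 2364, at −1.50, but these 2 share no more than 5 bases in a row and were joined only through other probes.

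Some sequences were on the array as 2 spots, which shows the error of a spot within an array. This was so for 21 member sequences, and both spots were members in all 21, which accounts for 42 members. These sequences came from few groups, with 5 each in the ECB_Gut 6708, ECB_Gut 161 and ECB_Gut 12675 groups. The 21 sequences therefore do not stand for 21 transcripts, and the medians below lean on these groups. The means of the paired spots differed by 0.03 to 0.34 with a median of 0.10. The diet differences that they gave differed by 0.06 in the median and by at most 0.16. The SD of a single spot, from how the difference between the paired spots varied over the 6 arrays, was 0.08 in the median. It leaves out the constant offset between the 2 spots. The SD between pools of a diet was 0.23 in the median for the same probes. The SD between pools also holds the differences between arrays.

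**Figure D3:**
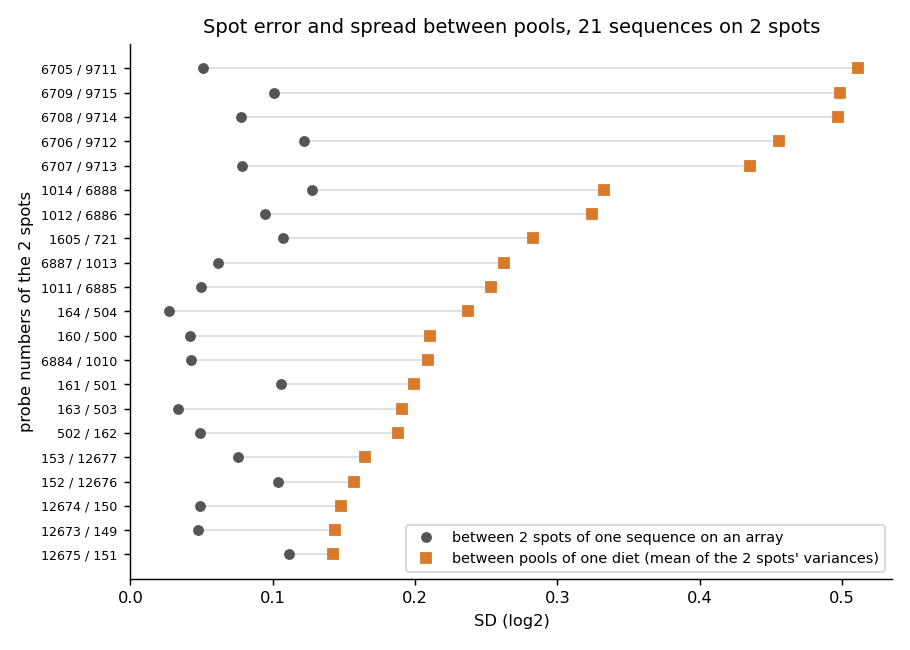
SD in log2 units (horizontal axis) of a spot (grey circles) and between pools of one diet (orange squares) for the 21 member sequences that are on 2 spots each, named by their probe numbers (vertical axis). The spot SD is from how the difference between the 2 spots varied over the arrays, without their constant offset. The spot SD had a median of 0.08 and the pool SD a median of 0.23, and the 5 pairs at the top, with probe numbers 6705 to 6709, belong to the ECB_Gut 6708 group.

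Spread between pools of a diet was not used in the choice. Over the 287 members it had a median SD of 0.20, with quartiles of 0.15 and 0.27, compared with 0.31 in the other 12548 probes with all 6 values. The other probes of the brightest class had a median of 0.24. The difference from the other probes was smaller after normexp background correction, with 0.17 in the members and 0.19 in the others. The lowest member SD was 0.05 and the highest 0.62.

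**Figure D4:**
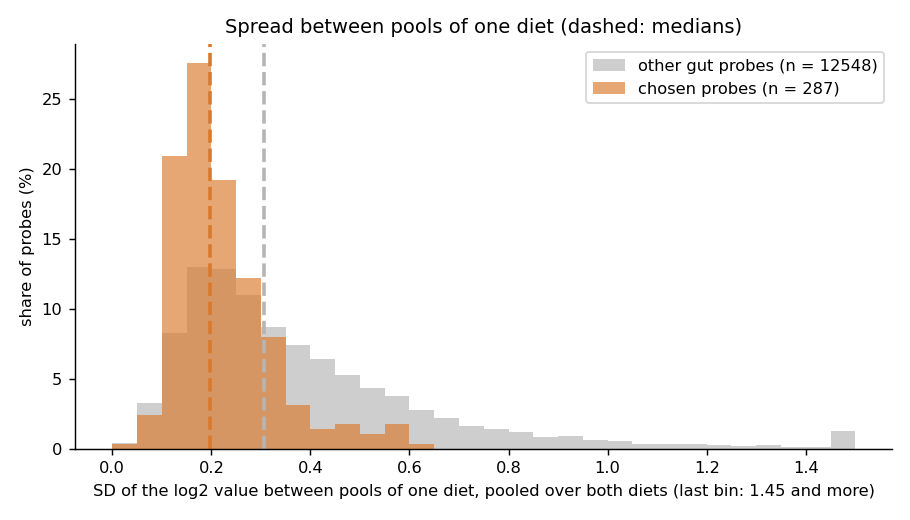
Share of probes in percent (vertical axis) by the SD of the log2 value between pools of one diet, pooled over both diets (horizontal axis), for the chosen probes (orange) and the other gut probes (grey), both with all 6 values; dashed lines are medians. The median was 0.20 in the chosen probes and 0.31 in the others.

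Much of the spread among the members came with a single array. The 287 members were high together in control replicate 2, with a median deviation of 0.17 from their own 6-array mean, and low in control replicates 1 and 3, with −0.17 and −0.13. The protoxin arrays deviated by 0.01, 0.11 and 0.11. Control replicate 2 was the highest control array in 214 of the 287 members, or 74.6%, compared with 41.7% of all probes. It was the lowest control array in 49 members, or 17.1%. After quantile normalization it was the highest control array in 45.6% of the members and 42.0% of all probes, and after normexp background correction in 70.0% and 64.6%, so the contrast with all probes depended on the processing. Without it, the median SD of the members within a diet was 0.14.

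The members ranked in a similar order on all arrays. The Spearman correlation of their levels over the 287 probes, which share array, probe design and often bases, was 0.85 to 0.91 between protoxin arrays and 0.67 to 0.86 between control arrays, with the values of control replicate 2 at 0.63 to 0.71 against every other array. Together the 300 members held 29.2%, 30.7% and 29.1% of the summed gut signal of the control arrays and 28.8%, 29.0% and 30.3% of that of the protoxin arrays. The means were 29.7% ± 0.92 and 29.4% ± 0.81 (SD, n = 3), and the diets overlapped. These are shares of probe signal, not of RNA.

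The bound on the diet difference left a range of small differences. The median of the protoxin mean minus the control mean was 0.12 in the members and 0.08 in all probes, and the quartiles of the members were 0.02 and 0.29. The median of the members was −0.05 after quantile normalization and 0.05 with a median shift, so its sign depended on the scaling of the arrays. The median of all probes moved with the processing too, to −0.03 after quantile normalization and 0.22 after normexp background correction. Protoxin means were above control means in 222 of the 287 members, or 77.4%, against 57.7% of all probes, whereas after quantile normalization they were so in 41.1% of the members and 45.3% of all probes. The difference was under 0.25 in size in 188 members. It was 0.5 or more in 14 members and −0.5 or less in 4.

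In 72 of the 287 members, or 25.1%, all 3 arrays of one diet were above all 3 of the other. The share was 25.6% over all 12835 gut probes with all 6 values, so under this scaling it was close to that of the array. Protoxin was the higher diet in 62 members, or 21.6% of the 287, against 13.8% of all probes. It was the lower in 10, or 3.48% of the 287, against 11.8% of all probes. These 72 members came from 28 groups, and their median difference in size was 0.35. After quantile normalization the members split into 21 higher and 24 lower, together 15.7%, against 26.3% of all probes. With a median shift they split into 41 higher and 10 lower, together 17.8%, against 25.8% of all probes. Without control replicate 2 they split into 166 higher and 11 lower, together 61.0% of 290 members, against 42.1% of all probes. The split into higher and lower members thus changed with the scaling, and their number with the scaling and with 1 array. In the test of the diets over all probes, with limma, 327 of 12969 probes were called at an adjusted p below 0.05 and a fold of at least 2, or 2.52%, and no member could pass that fold by the way it was chosen.

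**Figure D5:**
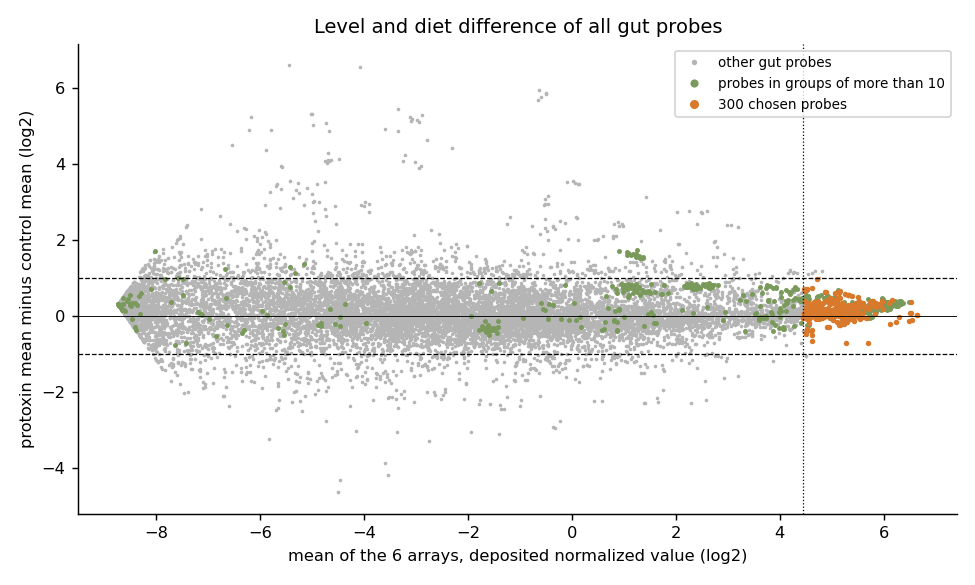
Protoxin mean minus control mean (vertical axis, log2) against the mean of the 6 arrays (horizontal axis, deposited log2 values) for the 300 chosen probes (orange), probes in groups of more than 10 (green) and the other gut probes (grey); dashed lines mark the bound of 1 and the dotted line the level of the last chosen probe. The chosen probes lie between −0.70 and 0.98 on the vertical axis.

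Among groups with at least 2 members, the ECB_Gut 2164 group was the lowest on protoxin diet. Its 2 members gave means of 5.63, 5.98 and 5.87 on the control arrays and 5.06, 5.07 and 5.26 on the protoxin arrays. The diets did not overlap, with 5.83 ± 0.18 and 5.13 ± 0.11, a difference of −0.70, which stayed between −0.80 and −0.62 when an array was left out and was −0.89 after quantile normalization. The 2 members share 30 bases, shown in capitals, and each had a difference of −0.70 on its own.
ECB_Gut 2164: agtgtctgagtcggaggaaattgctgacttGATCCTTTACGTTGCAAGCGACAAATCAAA
ECB_Gut 2163: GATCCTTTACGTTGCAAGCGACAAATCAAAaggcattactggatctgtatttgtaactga

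The next lowest were the ECB_Gut 687 and ECB_Gut 433 groups, with 4 members each. ECB_Gut 687 gave 4.79, 5.15 and 4.81 on the control arrays and 4.40, 4.37 and 4.62 on the protoxin arrays, a difference of −0.45. ECB_Gut 433 gave 4.80, 4.82 and 4.52, and then 4.32, 4.32 and 4.38, a difference of −0.37. Neither overlapped between the diets, and the quantile normalized differences were −0.63 and −0.55.

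At the other end stood the ECB_Gut 2977, ECB_Gut 1607 and ECB_Gut 3134 groups. In ECB_Gut 2977, the 2 members with all values gave 4.48, 3.35 and 4.74 on the control arrays and 4.93, 4.87 and 4.87 on the protoxin arrays. The protoxin arrays were all above the control arrays, but they overlapped after quantile normalization. Control replicate 2 was far below the other control arrays, and the difference of 0.70 was 0.28 without it. ECB_Gut 1607, with 2 members, gave 4.46, 5.14 and 4.45 against 5.29, 5.12 and 5.48, a difference of 0.62. ECB_Gut 3134, whose 5 members hold the polyadenylation signal, gave 4.67, 5.26 and 4.70 against 5.26, 5.42 and 5.66, a difference of 0.57. In both, control replicate 2 reached the range of the protoxin arrays. This overlap depended on the processing, since the diets did not overlap after normexp correction in either group, with differences of 0.58 and 0.54, nor after quantile normalization in ECB_Gut 3134, with 0.41.

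Of the 12 groups with the polyadenylation signal in every one of 5 or more members, 7 overlapped between the diets. The other 5, or 41.7%, were higher on protoxin diet without overlap, compared with 13.8% of all single probes. These counts were the same after normexp background correction. With a median shift, 9 of the 12 overlapped and 3 were higher, against 11.8% of all single probes. After quantile normalization 8 overlapped, 3 were higher, against 11.2% of all single probes, and 1 was lower. Of the 5 groups, 4 are given here. ECB_Gut 5079 gave 5.42, 5.61 and 5.56 on the control arrays and 5.72, 6.01 and 5.90 on the protoxin arrays. ECB_Gut 75 gave 4.77, 4.82 and 4.77, and then 4.96, 5.09 and 5.35. ECB_Gut 1048 and ECB_Gut 1182 had differences of 0.34 and 0.37. Of the 97 groups with all 6 values, 18 were higher and 3 lower on protoxin diet without overlap, together 21.6%, compared with 25.6% of all single probes. After quantile normalization the 97 groups split into 5 higher and 9 lower, together 14.4%, compared with 26.3% of all single probes. The differences of ECB_Gut 5079, ECB_Gut 75, ECB_Gut 1048 and ECB_Gut 1182 were then 0.15 to 0.19, and ECB_Gut 5079 and ECB_Gut 1048 overlapped between the diets.

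Other groups had nearly equal diet means under this scaling. ECB_Gut 10229, with 10 members of 10 different sequences, gave 4.90, 5.45 and 5.10 on the control arrays and 5.25, 4.98 and 5.20 on the protoxin arrays, a difference of −0.01. ECB_Gut 1274 and ECB_Gut 2528 differed by less than 0.01. After quantile normalization the differences of the 3 groups were −0.16, −0.18 and −0.13, with overlap, and each changed sign when certain arrays were left out. ECB_Gut 6708, with 10 members in 5 sequences, differed by −0.16, but its control arrays were far apart, at 4.56, 5.84 and 5.22, with 4.82, 5.16 and 5.15 on the protoxin arrays. A small mean difference in this group went with 1 of the 3 largest spreads within a diet, beside ECB_Gut 9847 and ECB_Gut 2977. One sequence is shown from these groups, ECB_Gut 10229, with capitals for the bases that all 10 probes share.
ECB_Gut 10229: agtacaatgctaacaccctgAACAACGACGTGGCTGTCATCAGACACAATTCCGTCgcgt

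The edges of the choice were narrow. ECB_Gut 2227 at rank 300 and ECB_Gut 1882 at rank 301 had deposited means of 4.456 and 4.455, a gap well under the spot SD of 0.08. ECB_Gut 1882 gave 4.18, 4.13 and 4.45 on the control arrays and 4.48, 4.82 and 4.60 on the protoxin arrays. The member nearest to the bound of the diet difference was ECB_Gut 600, with 4.07, 4.21 and 4.35 on the control arrays and 5.03, 5.22 and 5.32 on the protoxin arrays, a difference of 0.98. Its sequence, a single probe with an open frame, is given because it lies nearest to that bound.
ECB_Gut 600: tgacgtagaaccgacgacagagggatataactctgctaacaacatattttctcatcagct

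Just outside the bound, 6 probes were bright enough but differed by more than 1. ECB_Gut 599 gave 4.22, 4.31 and 4.22 on the control arrays and 5.04, 5.28 and 5.45 on the protoxin arrays, a difference of 1.01, and shares no more than 5 bases in a row with ECB_Gut 600. ECB_Gut 2165 gave 4.77, 5.07 and 5.19, and then 3.98, 3.87 and 4.03, a difference of −1.05. The remaining 4, ECB_Gut 3037 to ECB_Gut 3040, belong to 1 group and had differences of 1.12 to 1.19, with control replicate 2 within the range of the protoxin arrays in all 4. Besides these, 169 bright probes in 8 large groups were left out, and no bright probe was left out for a serine protease motif.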

How the data were processed

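The submitters' processing notes name Agilent Feature Extraction 9.5, the scanner software. The authors deposited scanner files with spot intensities that were background-subtracted and detrended. The authors also deposited a table of log2 values shifted to the 75th percentile of each array, from which the members were chosen, and which has 12 columns of detection calls that were not used. A table of diet means was not used either. Here, processed intensities were scaled to a common 75th percentile of the gut probes, set to 1 where lower, converted to log2 and expressed relative to that percentile. Outlier spots, 29 to 54 per array, were left out, and 76.0% to 80.1% of the gut probes were well above background. Precision is set by the small number of pools, 3 for each diet.

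The diets were compared over all probes with limma 3.58.1 in R 4.3.3, two-sided, with Benjamini-Hochberg adjustment, at an adjusted p below 0.05 and a fold of at least 2. The scripts were tested on simulated data. Probes, groups and sequence features were described with Python 3.11.15, pandas 2.3.3, numpy 2.4.6 and matplotlib 3.10.9. The value of a group is the mean of its members with all 6 values, and ± gives the SD over pools. Motifs were searched on the probe strand, and their reverse complements separately.

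The members and lists were chosen with earlier results of these data known. The groups named are those of the 20 highest ranked members, the 3 groups of 2 or more members with the highest, the lowest and the smallest diet difference and the 3 with the largest spread, and the members at the limits of the choice; ECB_Gut 5079, ECB_Gut 75, ECB_Gut 1048, ECB_Gut 1182 and the groups with wide spans were added after their values were seen. One group of the highest ranked members is not reported here. Lists by product name could not be applied, because the probes carry no gene names, and matches to genes were not made for the same reason.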

Additional observations from a re-analysis of the deposited data

How the results depend on the processing

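The choice of members was stable. After normexp correction 270 of the 300 were chosen again, and 296 each after quantile normalization and with a median shift. Without an array 290 to 294 were chosen again, and 280 to 300 with other ranks, bounds, links or motif rules. Scanner values without outlier spots, an alternative added after seeing the data, kept 297. Members whose diets do not overlap numbered 45 after quantile normalization, or 15.7%, against 26.3% of all probes. They numbered 77 to 177 without an array. The highest count, without control replicate 2, was 61.0% of the members against 42.1% of all probes. The lowest, without protoxin replicate 3, was 26.6% against 33.5%. Without any array other than control replicate 2, the share of the members was below that of all probes. Over the members as a whole, the median diet difference ranged from 0.06 to 0.22 without an array. The median spread within a diet ranged from 0.14 to 0.21 without an array, and the share of the signal from 29.3% to 29.7%. That share of the signal was 27.9% after normexp correction. Over all probes, limma called 327, 0 to 123 without an array (123, 43 and 87 without control replicates 1, 2 and 3, and 5, 4 and 0 without protoxin replicates 1, 2 and 3), 497 among probes well above background, 70 with a floor of 16 and 63 with the first label number as a block. At an unadjusted p it called 1006 probes of that fold with all arrays and 1001 without protoxin replicate 3. The methods' test called 740 before and 0 after adjustment. The replicate numbers do not pair the samples: deviations of same-numbered arrays correlated at −0.05, −0.02 and −0.07. With the replicate block, limma called 0 probes (992 at an unadjusted p), and the median difference of the members stayed at 0.12. A slide block was not run because the files give all 6 arrays 1 scan time. Of 180 recomputed differences of the 18 named groups, 174 moved by less than the spread within a diet; the other 6 arose with quantile normalization. The number of arrays limits all of these values.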
